A study of Saccharomyces cerevisiae with 8 samples.

Results

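Budding yeast mates when a cell of mating type a and a cell of mating type alpha sense each other's peptide pheromone. A receptor on the cell surface releases the beta and gamma subunits of a G protein, which switch on a cascade of kinases that ends in the MAP kinases Fus3 and Kss1. These act on the transcription factor Ste12, whose target genes serve adhesion, cell fusion and nuclear fusion, while cells that have met no pheromone express most of these targets at a low level. The 36 genes described here were taken by name from a table of 6596 gene models and fall into 3 classes by known role. There are 7 a-specific genes, 16 components of the cascade with its brakes and its arrest effector, and 13 genes known to be induced by pheromone. The last are called the induced genes below. The split is by role, and genes of the other classes may respond to pheromone too, so this class does not stand for all such genes. All 36 passed the filter on low counts, as did 6558 gene models in all.

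Poly(A) RNA-seq libraries of wild type (WT) and of mcd1-1 were compared, 4 of each, lettered A to D. The gene MCD1 codes for the kleisin of cohesin, which tethers sister chromatids, and the mcd1-1 cells carry an altered copy of this gene. WT and mcd1-1 are both W303-1a derivatives, W303-1a being a haploid of mating type a, and both were grown in YPD, a rich glucose medium, at 31 °C for 2 generations in logarithmic phase. No pheromone treatment is named. Nothing in the labels says whether the lettered replicates were separate cultures or clones, and p-values here cover no more than the spread among these libraries. In bulk RNA, fewer cells that express a gene and less RNA per cell cannot be told apart.

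Library totals were 22331070 to 58506447 counts. MCD1 mRNA, read here from the mutant allele too, was at 75 to 87.2 CPM (counts scaled per 1e+06 of the TMM-adjusted library total) in WT and at 286 to 378 CPM in mcd1-1, so its level checks no label. In both groups replicates A and B resembled each other more than they did C and D, a division that the labels do not explain. Values within each of these sets are given below where they differ. Short genes read higher in A and B than in C and D: over the 36 genes the WT log2 ratio of the sets fell with gene length (Pearson r = -0.72, Spearman rho = -0.76, a description over genes that share libraries).

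The regulatory DNA of these genes is shown first, because the classes are known for different binding sites. The a-specific genes carry a P-box, the site of the factor Mcm1, which the alpha2 repressor flanks and shuts off in alpha cells, and many pheromone-induced genes carry pheromone response elements (PREs), the sites of Ste12. In the 500 bases before the start codon, which can reach into a neighbouring gene, both strands were searched for the PRE as TGAAACA and the P-box as TTNCC and GGNAA with any 6 bases between them. Stretches of 60 bases around the P-box of the a-specific genes are printed below in lower case, 5′ to 3′ on the gene's strand in build R64, with P-box and PRE matches in capitals.
STE2 (chrVI:82337-82396, plus strand): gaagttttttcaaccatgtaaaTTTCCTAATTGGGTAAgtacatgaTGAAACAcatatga
STE6 (chrXI:46463-46522, minus strand): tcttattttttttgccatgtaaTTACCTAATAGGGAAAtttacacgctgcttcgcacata
BAR1 (chrIX:322063-322122, plus strand): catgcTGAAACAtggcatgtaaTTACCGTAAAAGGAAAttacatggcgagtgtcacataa
MFA1 (chrIV:1384927-1384986, plus strand): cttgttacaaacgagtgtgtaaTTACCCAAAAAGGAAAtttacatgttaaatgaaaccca
MFA2 (chrXIV:352148-352207, plus strand): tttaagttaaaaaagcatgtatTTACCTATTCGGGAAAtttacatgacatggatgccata
AGA2 (chrVII:437087-437146, minus strand): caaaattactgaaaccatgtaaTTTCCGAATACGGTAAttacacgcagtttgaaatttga
ASG7 (chrX:101891-101950, minus strand): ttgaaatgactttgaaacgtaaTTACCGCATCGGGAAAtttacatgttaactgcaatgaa

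For the induced genes the stretches around the PREs nearest the start codon are shown for 5 genes, again with the PRE in capitals. The 5 were picked as examples from the 8 called higher in mcd1-1, and induced genes that were not called carry PREs too. In PRM1 all 3 matches lie on the other strand and so read TGTTTCA.
FUS1 (chrIII:71603-71662, plus strand): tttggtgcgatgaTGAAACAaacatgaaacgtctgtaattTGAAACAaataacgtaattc
FUS2 (chrXIII:736689-736748, plus strand): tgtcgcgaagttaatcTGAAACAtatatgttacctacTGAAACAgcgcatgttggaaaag
PRM1 (chrXIV:110720-110779, plus strand): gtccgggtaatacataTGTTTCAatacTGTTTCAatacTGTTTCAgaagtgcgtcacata
AGA1 (chrXIV:703470-703529, plus strand): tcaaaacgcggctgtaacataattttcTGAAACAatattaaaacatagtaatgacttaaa
PRM6 (chrXIII:181199-181258, minus strand): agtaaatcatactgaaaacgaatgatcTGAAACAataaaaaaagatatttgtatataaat

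A PRE was found upstream of 25 of the 36 genes, against 12% of 6000 protein-coding genes. By class these were 7 of 7 a-specific genes, 8 of 16 cascade genes and 10 of 13 induced genes. By call, a PRE stood upstream of 8 of 11 genes higher in mcd1-1 (72.7%), 1 of 3 lower and 16 of 22 not called (72.7%). Among the 8 induced genes called higher, 6 held a PRE. At least 2 PREs stood upstream of 14 of the 36 genes, against 0.933% of all. A P-box was found in 7 of 7 a-specific genes, in the cascade genes GPA1, FAR1 and MSG5 and in 0 of 13 induced genes, against 1.88% of all. Both motifs occurred together in 17 promoters of the 6000, and 7 of these belong to the a-specific genes. The P-box pattern was chosen after the promoters were read, so its matches in the a-specific genes are a description and no test. Among the induced genes FIG1, KAR5 and PRM4 held no match to these letters in the window.

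**Figure D1:**
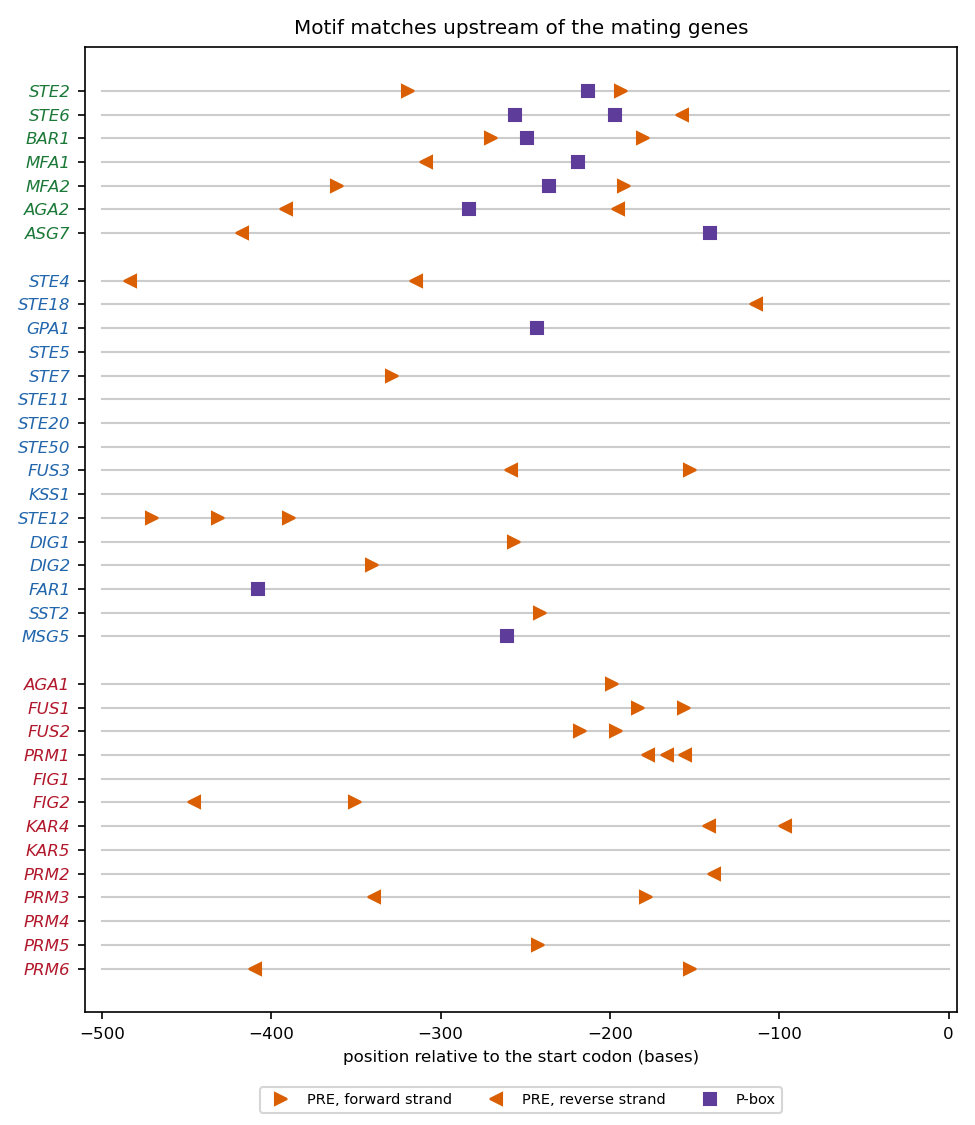
Positions of PRE matches (triangles, pointing along the strand of the match) and P-box matches (squares) in the 500 bases before the start codon of each of the 36 genes, with gene names coloured by class. Squares stand in all 7 a-specific rows and in none of the induced rows, for a P-box pattern chosen after the promoters were read.

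Of the induced genes 8 rose in mcd1-1, the called cascade genes went both ways, and the number of a-specific genes called depended on whether the replicate letter was a term of the fit. In the edgeR quasi-likelihood test, with p-values adjusted over all 6558 genes, 11 of the 36 genes rose and 3 fell, where 20.7% of all genes rose and 19.7% fell (40.4% in either direction). Of the 13 induced genes 8 rose and 1 fell, with a median log2 fold change of 1.18. Both the count and the median include PRM6, which passed the filter on low counts through mcd1-1 (4 libraries at the cutoff against 1 of WT). Of the 16 cascade genes 2 rose and 2 fell (median 0.01), and of the 7 a-specific genes 1 rose and 0 fell in edgeR (median -0.41), with 1 lower at an unadjusted p under 0.05, 1 lower in DESeq2 and 0 in limma-voom. The median over all genes was -0.01. Among the 4086 genes of 1 to 100 mean CPM, a range that holds all induced genes except PRM5, 28.2% rose and 12.2% fell. The part of abundance in the members' counts was not tested. With the replicate letter as a block, 15 of the 36 rose and 7 fell (29.4% and 30.2% of all genes), in the induced class 9 rose and 1 fell, in the cascade 3 rose and 3 fell, and of the a-specific genes 3 rose and 3 fell, so that 6 of 7 were called.

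**Figure D2:**
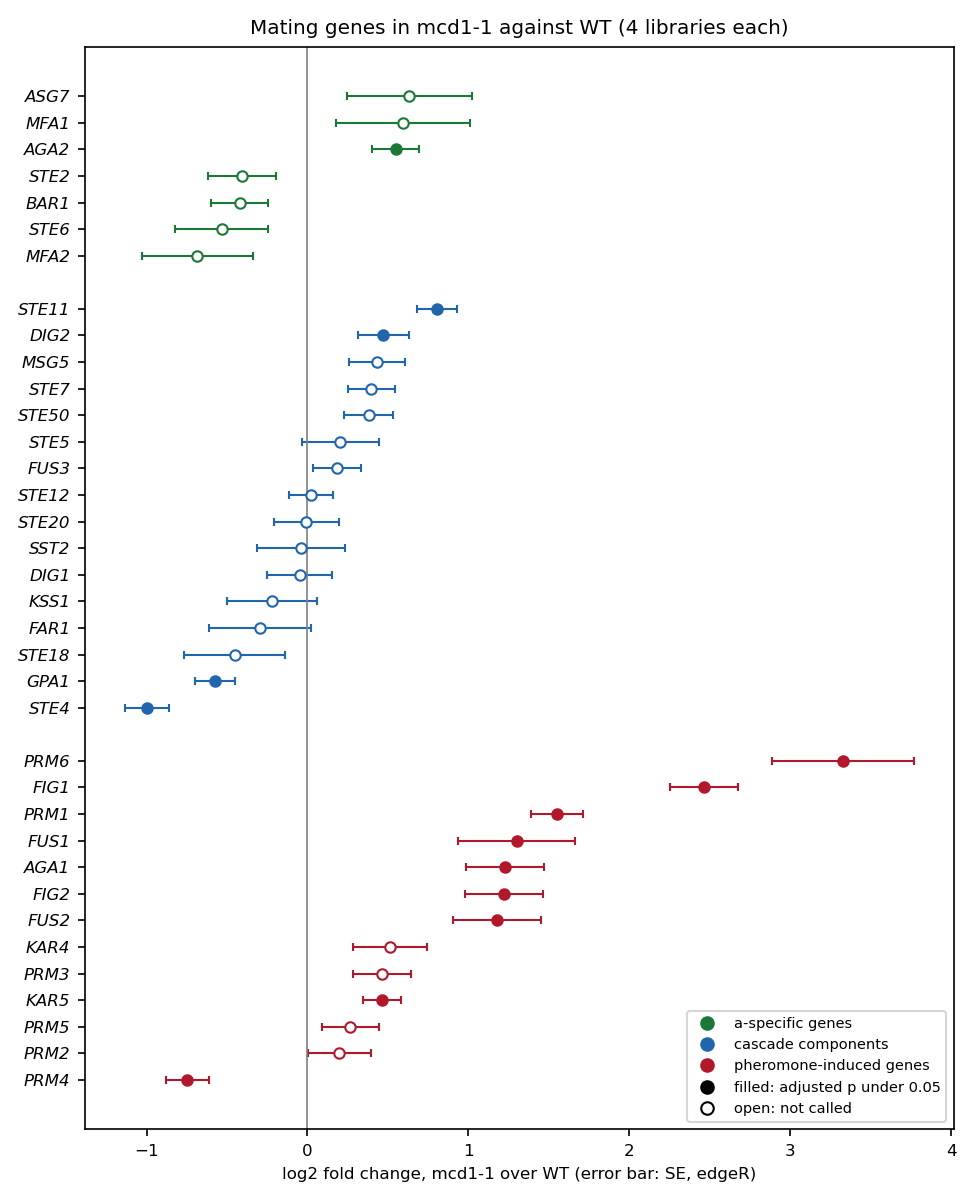
Log2 fold change of mcd1-1 over WT for each of the 36 genes with its SE from edgeR, sorted within class, filled where the adjusted p was under 0.05. The induced genes reach from -0.75 (PRM4) to 3.33 (PRM6), and 12 of 13 lie above 0. PRM6 passed the filter on low counts through mcd1-1.

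Of the genes for adhesion and cell fusion, AGA1 encodes the cell-wall anchor of the agglutinin that holds mating partners together. It stood at 31.7, 42.5, 56.7 and 51.3 CPM in WT A to D and at 82.6, 79.2, 132 and 132 CPM in mcd1-1 A to D. The groups did not overlap, and the change was 2.34-fold (log2 1.23 ± 0.24 SE, edgeR adjusted p = 0.00388). FIG2, another cell-wall adhesin of mating cells, went from 26.8, 32.2, 49.8 and 59.7 CPM to 90.4, 92.3, 107 and 103 CPM. Again the groups did not overlap, and the rise was 2.33-fold (log2 1.22 ± 0.24, edgeR adjusted p = 0.00391). The change of FIG2 was 1.63 in A and B and 0.95 in C and D (interaction adjusted p = 0.00963). Over all genes, the 4 mcd1-1 libraries lay above the 4 WT libraries in 22.1% and below them in 21% of cases.

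FUS1 encodes a membrane protein of the zone where partners fuse, and its promoter is the classic reporter of pathway output. WT A to D held 24.8, 23.8, 10.2 and 8.2 CPM and mcd1-1 A to D held 45.4, 51.7, 32.9 and 34.2 CPM. The lowest mcd1-1 library was above the highest WT library (2.46-fold, log2 1.30 ± 0.37, edgeR adjusted p = 0.0193). The log2 ratio of group means was 1.00 in replicates A and B and 1.86 in C and D, and this difference between the sets passed its own test (interaction adjusted p = 0.00635). FUS2, which acts with Rvs161 in fusion, was at 9.1, 8.09, 10.1 and 11.7 CPM in WT and at 11.5, 21, 27.9 and 27.6 CPM in mcd1-1. Here mcd1-1 A lay within the WT range and the other 3 libraries above it (2.26-fold, log2 1.18 ± 0.27, adjusted p = 0.00855).

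PRM1, which promotes fusion of the plasma membranes, was among the steadiest of these genes in WT, at 11.8, 12.6, 11.2 and 10.6 CPM. It was at 37.4, 40.9, 28.9 and 28.2 CPM in mcd1-1, with no overlap, a 2.93-fold rise (log2 1.55 ± 0.16, edgeR adjusted p = 0.000188). FIG1, a membrane protein required for calcium influx during mating, was near the lower end of detection in WT, with 18, 18, 25 and 29 counts in its libraries. In mcd1-1 it had 123, 150, 144 and 257 counts, which is 0.845 ± 0.0999 CPM in WT and 4.66 ± 0.522 CPM in mcd1-1 (SD, n = 4). That was a 5.52-fold rise (log2 2.46 ± 0.21, edgeR adjusted p = 7.57e-05), and it was close to the same in replicates A and B (2.5) and in C and D (2.42). FUS1, FUS2, PRM1, FIG1 and FIG2, the 5 genes classed under cell fusion, all rose, with log2 fold changes of 1.18 to 2.46. Of all genes 20.7% rose, and 28.2% of those of 1 to 100 mean CPM. The class is small and was drawn up with earlier results of these data known.

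Of the 4 genes of nuclear fusion, which joins the partners' nuclei after the cells have merged, 1 was called higher, near the 20.7% of all genes. KAR5, which acts at the nuclear envelope, was at 15.8, 15.7, 15.3 and 15.3 CPM in WT and at 19.5, 22.5, 22.4 and 21.1 CPM in mcd1-1. The groups did not overlap (1.38-fold, log2 0.46 ± 0.12, edgeR adjusted p = 0.0134). KAR4, a partner of Ste12 at karyogamy genes, was not called (log2 0.51 ± 0.23, adjusted p = 0.104). It stood at 58.2, 62.6, 33.2 and 32.2 CPM in WT and at 72.4, 67.6, 62.6 and 62.3 CPM in mcd1-1, so that WT B reached the lowest mcd1-1 library. Its change was 0.21 in A and B and 0.93 in C and D (interaction adjusted p = 0.00209), and it was called with the replicate block (edgeR adjusted p = 0.0206). PRM3, of the nuclear envelope, gave log2 0.46 ± 0.18 (adjusted p = 0.0676) from a level of 9.38 CPM in WT. PRM2 gave 0.20 ± 0.20 (adjusted p = 0.45) from 11.8 CPM.

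Among the remaining pheromone-regulated genes the changes ran in opposite directions. PRM6, which encodes a potassium transport protein, had the largest log2 fold change of the 36 and was the least abundant of them. Its 4 WT libraries held 9, 4, 6 and 7 counts, against 65, 120, 55 and 110 for mcd1-1. In CPM this was 0.258 ± 0.132 against 2.53 ± 1.09 (SD, n = 4), with no overlap and a log2 fold change of 3.33 ± 0.44 (edgeR adjusted p = 0.000622). It passed the filter on low counts through mcd1-1, with 4 libraries at the cutoff of 0.384 CPM against 1 of WT, so that it could hardly be tested without differing, and without it 7 of 12 induced genes rose. The model overlaps another on the genome, YML047W-A, and without the strand setting of the counting their reads cannot be told apart.

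PRM4 went the other way. It was at 73.5, 70.7, 53.2 and 66.9 CPM in WT and at 41.1, 42.1, 36.2 and 38.1 CPM in mcd1-1, all below WT, and fell by 0.75 on the log2 scale (SE 0.13, edgeR adjusted p = 0.00246). PRM5, which is also known as a target of the cell wall integrity pathway, was the most abundant induced gene at 244 ± 39.6 CPM in WT and was not called (log2 0.27 ± 0.18, adjusted p = 0.252). Its change was -0.12 in A and B and 0.66 in C and D (interaction adjusted p = 0.00295).

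**Figure D3:**
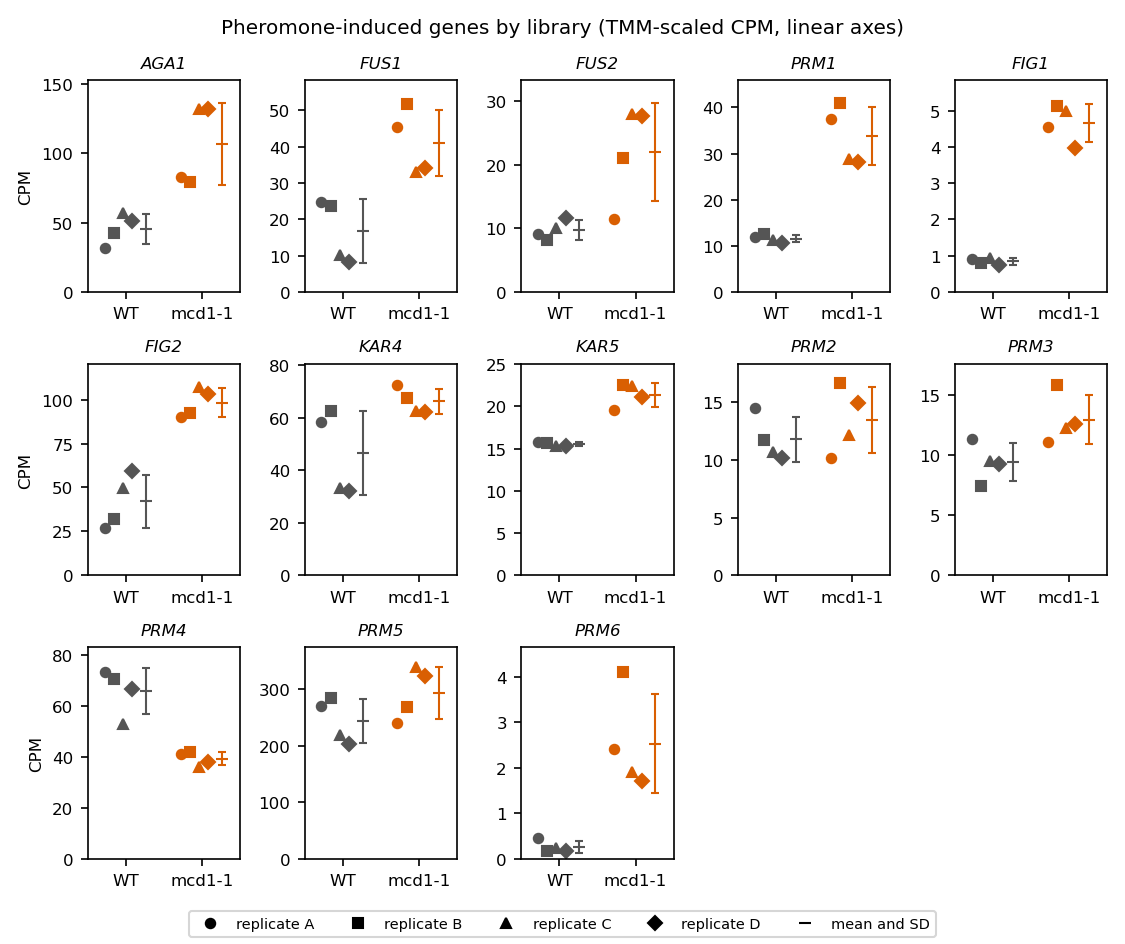
CPM of the 13 pheromone-induced genes in each library (symbols give the replicate letter) with the group mean and SD, on linear axes from 0. In FIG1, PRM1 and PRM6 the mcd1-1 libraries stand clear of all WT libraries, whereas in PRM4 they lie below them.

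Per length, the 13 genes spanned a wide range in WT, from 0.244 CPM per kb for PRM6 and 0.942 for FIG1 to 77.3 for PRM4 and 255 for PRM5. The rises did not bring the fusion genes to the level of the receptor. In mcd1-1 FIG1 stood at 5.19 CPM per kb, FUS2 at 10.8, PRM1 at 17, FIG2 at 20.4, FUS1 at 26.7 and AGA1 at 48.9, while the receptor gene STE2 stood at 214.

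The a-specific genes make and export a-factor, sense alpha-factor and display the a-agglutinin. All 7 were detected in every library. In WT they stood at 15 CPM per kb for ASG7, 71.6 for STE6, 125 for BAR1, 137 for AGA2, 283 for STE2, 470 for MFA1 and 1233 for MFA2. Of the alpha-cell markers, MF(ALPHA)1, STE3 and MATALPHA1 stood at 1.44, 3.69 and 2.86 CPM per kb in WT and SAG1 and MF(ALPHA)2 at 14.6 and 17.2. Summed over these 5 markers the level was 37.9 to 46.4 CPM in the WT libraries and 110.2 to 151 CPM in mcd1-1. Most of this sum was SAG1, with means of 28.5 CPM in WT and 84.6 CPM in mcd1-1. STE3 (log2 1.9 ± 0.18, edgeR adjusted p = 0.000112), SAG1 (1.57 ± 0.20, adjusted p = 0.000468) and MF(ALPHA)1 (2.87 ± 0.28, adjusted p = 0.000134) rose, and none of the 5 was at 0 in any library. With the replicate block MF(ALPHA)2 (adjusted p = 0.0156) and MATALPHA1 (adjusted p = 0.00674) were called higher as well. MATALPHA2, whose end is shared with a gene of a cells, was at 159 CPM per kb in WT and was not called. The part of these transcripts in the results was not tested.

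AGA2 encodes the adhesion subunit of the a-agglutinin, which binds to the anchor Aga1, and was the 1 a-specific gene called. It was at 43, 39.7, 33.3 and 28.5 CPM in WT and at 50.4, 55.1, 55.5 and 50.2 CPM in mcd1-1, with no overlap (1.46-fold, log2 0.55 ± 0.15, edgeR adjusted p = 0.0156). Both subunits of the agglutinin were thus higher. The ratio of AGA1 to AGA2 counts within a library was 0.736 to 1.8 in WT and 1.44 to 2.64 in mcd1-1, and these ranges overlapped (exact permutation p = 0.171, 2-sided, n = 4 and 4). Within letters it was higher in mcd1-1 in 4 of 4, where a paired test could not give a p under 0.125.

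STE2, the alpha-factor receptor, was at 404, 391, 353 and 321 CPM in WT and at 229, 196, 339 and 344 CPM in mcd1-1. The A and B libraries of mcd1-1 were below all WT libraries and the C and D libraries within the WT range, and the gene was not called (log2 -0.41 ± 0.21, edgeR adjusted p = 0.148). With the set of replicates (A and B, or C and D) as a block, STE2 was called lower (edgeR adjusted p = 0.0487). The change was -0.91 in A and B and 0.02 in C and D, a difference between the sets with an interaction adjusted p of 0.00227. BAR1, the secreted protease that degrades alpha-factor, was at 219, 229, 236 and 197 CPM and at 134, 132, 187 and 205 CPM. It had the same form, -0.75 in A and B and -0.14 in C and D (interaction adjusted p = 0.00977). It was not called over all 8 libraries (log2 -0.42 ± 0.18, edgeR adjusted p = 0.0855), though it was with the replicate block (adjusted p = 0.0431) and in DESeq2 (adjusted p = 0.0487).

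STE6, the ABC transporter that exports a-factor, gave -0.53 ± 0.29 (edgeR adjusted p = 0.167). WT A to D were at 218, 230, 335 and 326 CPM and mcd1-1 A to D at 151, 111, 250 and 255 CPM, so that each mcd1-1 library was below the WT library of its letter. With the letter as a block STE6 was called lower (adjusted p = 0.0101). ASG7, an a-specific protein that dampens signalling in zygotes, was at 13.9, 13.1, 5.57 and 5.21 CPM and at 18.1, 19.7, 9.5 and 11 CPM. It was not called (log2 0.63 ± 0.39, edgeR adjusted p = 0.216) except with the block (adjusted p = 0.00673).

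MFA1 and MFA2 both encode precursors of a-factor, in reading frames of 111 and 117 bases of which 84 aligned bases are identical. MFA1 stood at 81.9, 75.5, 27.5 and 23.6 CPM in WT and at 93.8, 99.7, 68 and 53.3 CPM in mcd1-1. MFA2 stood at 201, 194, 99 and 83.4 CPM in WT and at 135, 90.1, 71 and 62.2 CPM in mcd1-1. In each group both genes were lower in C and D than in A and B, neither was called (MFA1 0.60 ± 0.42, edgeR adjusted p = 0.277; MFA2 -0.69 ± 0.35, adjusted p = 0.141), and their estimates pointed in opposite directions. With the replicate block MFA1 was called higher (adjusted p = 0.0149) and MFA2 lower (adjusted p = 0.00587). The change of MFA1 was 0.30 in A and B and 1.25 in C and D (interaction adjusted p = 0.00457).

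The ratio of the 2 precursors within a library does not depend on scaling. In WT A to D, MFA1 counts were 0.408, 0.39, 0.278 and 0.283 of MFA2 counts, and in mcd1-1 they were 0.693, 1.11, 0.958 and 0.857 of them. All mcd1-1 ratios were higher than all WT ratios, a 2.66-fold shift with an exact permutation p of 0.0286, the smallest that 4 against 4 libraries allow. Adjusted over the 8 pairs of genes compared, p was 0.114, so the shift did not pass the correction.

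**Figure D4:**
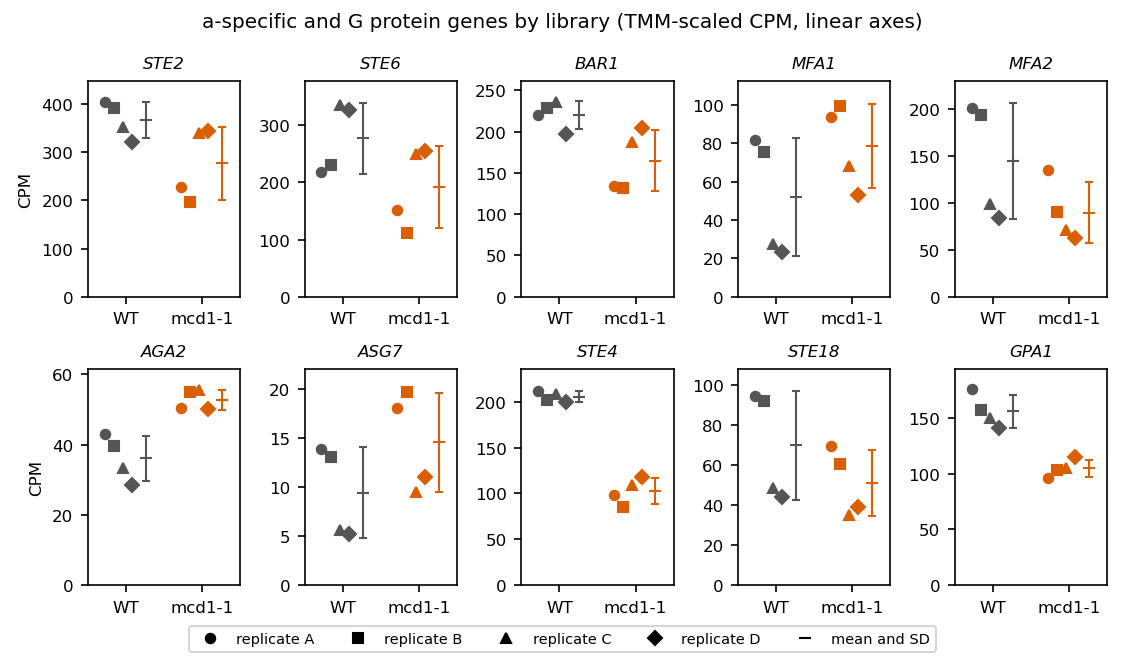
CPM of the 7 a-specific genes and the 3 G protein genes in each library (symbols give the replicate letter) with the group mean and SD, on linear axes from 0. STE4 and GPA1 separate WT from mcd1-1, and AGA2 does so in the other direction. In WT, replicates A and B lie apart from C and D in every gene shown but BAR1 and STE4. They lie above C and D except in STE6, by the largest ratios in MFA1, MFA2, ASG7 and STE18.

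The G protein links the receptor to the cascade, with Gpa1 as alpha, Ste4 as beta and Ste18 as gamma subunit. STE4 was at 212, 201, 209 and 200 CPM in WT, a spread of 5.91 (SD), and at 98.6, 85.2, 109 and 118 CPM in mcd1-1. It fell by 1.00 on the log2 scale (SE 0.14, edgeR adjusted p = 0.000728), with all mcd1-1 libraries below all WT libraries. GPA1 was at 176, 157, 150 and 141 CPM in WT and at 96.4, 103, 105 and 115 CPM in mcd1-1. The groups did not overlap, and it fell by 0.57 (SE 0.13, adjusted p = 0.00625).

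GPA1 lost its call when libraries were scaled by total counts alone (log2 -0.24, adjusted p = 0.17), a scaling that moves the median of all genes to 0.33. STE18 was at 94.5, 91.8, 48.6 and 44.2 CPM in WT and at 69.2, 60.5, 35.1 and 39.2 CPM in mcd1-1, where the sets overlap across groups. It was not called (log2 -0.45 ± 0.31, edgeR adjusted p = 0.275), but was called lower with the replicate block (adjusted p = 0.0118). Its model overlaps YJR087W. STE4 counts were 1.2 to 1.41 times GPA1 counts in WT and 0.826 to 1.04 times in mcd1-1, with no overlap (ratio changed 0.739-fold, exact permutation p = 0.0286, adjusted over the 8 pairs p = 0.114).

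In the kinase cascade, STE11, the MAP kinase kinase kinase, was the 1 kinase called. It was at 65.4, 65.4, 73.4 and 78.3 CPM in WT and at 108, 124, 132 and 129 CPM in mcd1-1. No library of 1 group reached the other (1.75-fold, log2 0.81 ± 0.12, edgeR adjusted p = 0.00131), and the change was 0.83 in A and B and 0.78 in C and D. STE7, the MAP kinase kinase, was at 41.2, 35.5, 41.9 and 46.9 CPM and at 48.8, 67.3, 51.1 and 50.9 CPM. All mcd1-1 libraries lay above WT, but the gene missed the threshold (log2 0.40 ± 0.15, adjusted p = 0.0549). It was called higher with the set of replicates as a block (edgeR adjusted p = 0.0219) and in DESeq2 (adjusted p = 0.0462). STE7 overlaps 2 other models, so its reads may be shared.

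STE50, the adaptor that binds Ste11, gave 0.38 ± 0.15 (edgeR adjusted p = 0.0726), with 53.7 to 74.6 CPM in WT and 73.9 to 97.3 CPM in mcd1-1. It was called with the replicate block (adjusted p = 0.00861). The scaffold STE5 gave 0.20 ± 0.24 (adjusted p = 0.521), from 84.3 to 97.2 mean CPM. The upstream kinase STE20, which overlaps YHL006W-A, had the same mean of 142 CPM in both groups (log2 -0.01 ± 0.20, adjusted p = 0.985). That mean hid a change of 0.43 in A and B and of -0.35 in C and D (interaction adjusted p = 0.00117).

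The MAP kinase genes FUS3, specific to mating, and KSS1, which also serves filamentous growth, were not called. FUS3 was at 104 to 142 CPM in WT and 130 to 151 CPM in mcd1-1 (log2 0.18 ± 0.15, edgeR adjusted p = 0.353), and KSS1 at 41.7 to 82.2 and 37.8 to 69.2 CPM (log2 -0.22 ± 0.28, adjusted p = 0.554). FUS3 counts were 3.35, 2.77, 1.26 and 1.46 times KSS1 counts in the WT libraries, and in mcd1-1 they were 4, 3.71, 1.94 and 1.92 times as many. The groups overlapped (exact permutation p = 0.371), while within letters the ratio was higher in mcd1-1 in 4 of 4.

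STE12, the transcription factor at the end of the cascade, had means of 96.9 ± 9.98 CPM in WT and 98.6 ± 12.1 CPM in mcd1-1 (SD, n = 4) and was not called (log2 0.02 ± 0.14, edgeR adjusted p = 0.909). The change was 0.28 in A and B and -0.24 in C and D (interaction adjusted p = 0.00804). Its inhibitor DIG1 gave -0.05 ± 0.20 (edgeR adjusted p = 0.868), with 136 to 154 CPM in WT. In mcd1-1 DIG1 was at 191 and 155 CPM in A and B but at 106 and 109 CPM in C and D. The change of DIG1 was 0.32 in A and B and -0.50 in C and D (interaction adjusted p = 0.0032). The second inhibitor, DIG2, was at 32, 29.4, 23.3 and 23.9 CPM in WT and at 40.3, 43.9, 33.8 and 32.4 CPM in mcd1-1 and rose 1.39-fold (log2 0.47 ± 0.16, edgeR adjusted p = 0.0405). The groups did not overlap, but the call was lost without WT B (adjusted p = 0.0608), WT C (0.0977), WT D (0.0927) or mcd1-1 B (0.0597).

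DIG1 counts were 4.27 to 6.45 times DIG2 counts in WT and 3.13 to 4.74 times in mcd1-1 (exact permutation p = 0.0571, adjusted over the 8 pairs p = 0.152). FAR1, which arrests the cell cycle and orients the mating projection, was at 70.1, 78.9, 166 and 160 CPM in WT and at 78.4, 74.4, 114 and 121 CPM in mcd1-1. It was not called (log2 -0.29 ± 0.32, edgeR adjusted p = 0.484), with 0.04 in A and B and -0.47 in C and D (interaction adjusted p = 0.00904).

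Of the 2 brakes, SST2 encodes the regulator that speeds GTP hydrolysis on Gpa1, and MSG5 a phosphatase of Fus3. SST2 was at 81, 81.8, 109 and 103 CPM in WT and at 57.5, 61.5, 124 and 121 CPM in mcd1-1 (log2 -0.04 ± 0.27, edgeR adjusted p = 0.92). The mcd1-1 libraries lay below all WT libraries in A and B and above them in C and D (interaction adjusted p = 0.00195). MSG5 was at 36.4, 40.3, 53.2 and 56.1 CPM and at 67.7, 71.8, 54.2 and 57.3 CPM. It changed by 0.86 in A and B and by 0.03 in C and D (interaction adjusted p = 0.00168), and was not called overall (log2 0.43 ± 0.17, edgeR adjusted p = 0.0719). Ratios of SST2 to GPA1 (exact permutation p = 0.229), MSG5 to FUS3 (p = 0.429) and FUS1 to FUS2 (p = 0.571) overlapped between the groups. Within letters they were higher in mcd1-1 in 4, 2 and 3 of 4.

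In all, 13 of the 36 genes changed differently in the 2 sets of replicates at an adjusted interaction p under 0.05, close to the 36.7% of all genes for which this held. They were STE2, BAR1 and MFA1 of the a-specific genes, STE20, STE12, DIG1, FAR1, SST2 and MSG5 of the cascade, and FUS1, FIG2, KAR4 and PRM5 of the induced genes. FUS1 and FIG2 were higher in mcd1-1 within each set. STE2, STE20, STE12, DIG1, FAR1, SST2 and PRM5 had changes of opposite sign in the sets, though STE2 was near 0 in C and D (0.02) and FAR1 in A and B (0.04).

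**Figure D5:**
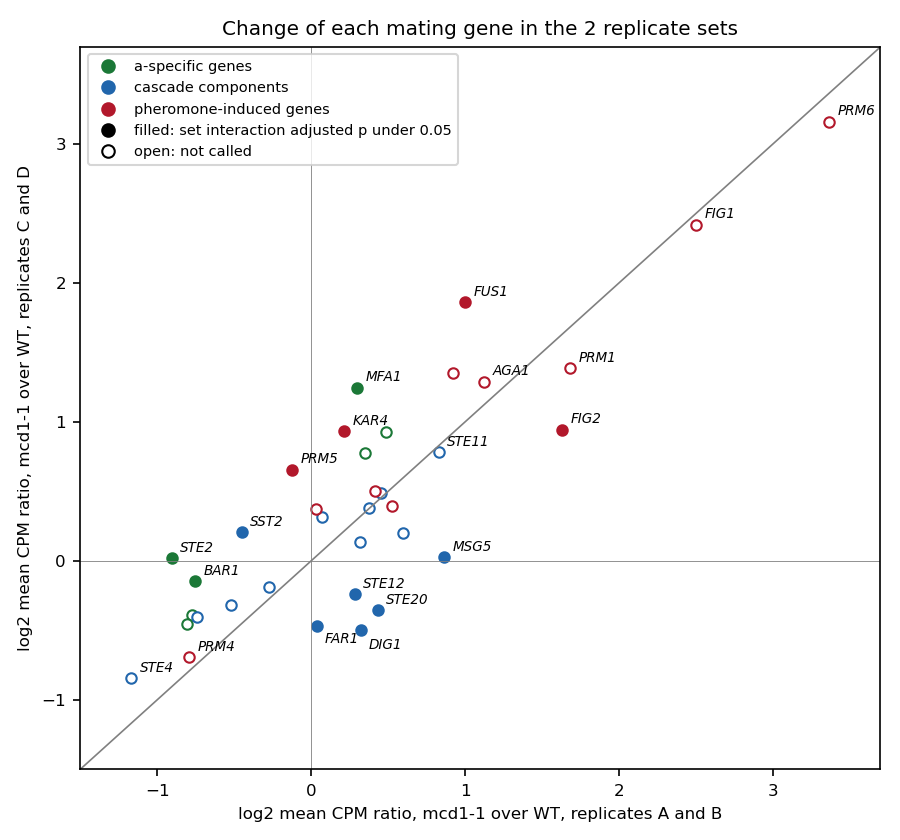
Log2 ratio of mean CPM, mcd1-1 over WT, in replicates A and B (x axis) against replicates C and D (y axis) for the 36 genes, filled where the difference between the sets had an adjusted interaction p under 0.05. FIG1, PRM6, PRM1, AGA1, STE11, STE4 and PRM4 lie near the diagonal, while SST2 and MSG5 lie on opposite sides of it.

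Other genes of the pathway were taken from lists drawn up by role, whose counts stand against the 20.7% of all genes that rose and the 19.7% that fell, or 29.4% and 30.2% with the replicate block. Of 12 further genes known to respond to pheromone 5 rose and 1 fell (median log2 fold change 0.15), and with the block 5 rose and 3 fell. GIC2, an effector of Cdc42 in polarised growth, rose from 60.4 ± 12.8 to 124 ± 4.44 CPM (SD, n = 4; log2 1.03 ± 0.16, edgeR adjusted p = 0.0014). PCL2, a G1 cyclin (0.57 ± 0.14, edgeR adjusted p = 0.0102), the kinesin KAR3 (0.69 ± 0.19, adjusted p = 0.0186) and AFR1, which shapes the mating projection (0.40 ± 0.12, adjusted p = 0.0293), also rose. CIK1, the partner of Kar3, rose too (0.76 ± 0.24, adjusted p = 0.0305), while the chitin synthase CHS1 fell by 0.47 (SE 0.15, adjusted p = 0.031); this pair was named after its values were seen.

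Of 6 genes that mature the a-factor precursor by farnesylation, proteolysis and methylation, 0 rose in edgeR, DESeq2 or limma-voom or at an unadjusted p under 0.05, and 2 fell (3 with the block). The 2 were RCE1, the protease that trims the farnesylated end (-1.03 ± 0.25, edgeR adjusted p = 0.00947), and RAM2, a farnesyltransferase subunit (-0.54 ± 0.17, adjusted p = 0.0341). Of 8 genes for polarity and fusion machinery 2 fell, RVS161 (-0.90 ± 0.18, adjusted p = 0.00403) and the GTPase gene CDC42 (-0.53 ± 0.17, adjusted p = 0.0357), and 0 rose by the same criteria. Of 10 regulators of mating genes 0 were called in edgeR, DESeq2 or limma-voom and 1 had an unadjusted p under 0.05, though 3 were higher with the replicate block. Of 6 genes of the filamentation branch, which shares Ste20, Ste11, Ste7 and Kss1, 2 rose, the adhesin FLO11 (2.29 ± 0.21, edgeR adjusted p = 9.44e-05) and the membrane anchor OPY2 (0.73 ± 0.19, adjusted p = 0.0123), and with the block 3 rose and 1 fell.

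Several mating genes are also known to vary through the cell cycle, so lists of cycle genes are set beside them. Of 14 genes that peak between mitosis and G1, 7 fell and 1 rose (median -0.84; 8 and 2 with the block). Among them DSE1 (-1.57 ± 0.17, edgeR adjusted p = 0.000197), DSE2 (-1.67 ± 0.21, adjusted p = 0.000497), EGT2 (-1.59 ± 0.23, adjusted p = 0.00104) and SCW11 (-1.31 ± 0.20, adjusted p = 0.00133), which serve the separation of daughter cells, fell. Of 10 genes that peak before mitosis 4 rose and 1 fell (median 0.46; 5 and 1 with the block), with CDC20 (0.88 ± 0.20, edgeR adjusted p = 0.00723) and SPO12 (0.51 ± 0.12, adjusted p = 0.00776) among those higher and the cyclin CLB1 lower (-0.49 ± 0.16, adjusted p = 0.031). Of 10 genes that peak at the start of S phase 1 rose and 2 fell (median -0.07; 2 and 4 with the block), CLB6 being higher (0.68 ± 0.19, edgeR adjusted p = 0.0165) and CLN1 (-0.66 ± 0.14, adjusted p = 0.00599) and TOS4 (-0.41 ± 0.10, adjusted p = 0.0123) lower. The part of cell cycle position in the values of the mating genes was not tested.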

How the data were processed

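The deposited table holds raw counts of reads per gene model, with no normalisation by the authors. Tools listed in the submitters' processing notes are featureCounts 1.6.0, Picard, STAR 2.5.3a, Trim Galore 0.4.3 and bcl2fastq 2.9, with build R64. Strand setting and treatment of shared reads: not given in the sources used here. 4 lines of the table were empty as received.

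Counts were filtered by filterByExpr, scaled by TMM and tested in edgeR 4.0.16 (quasi-likelihood F test, 2-sided, group as the only term), with Benjamini-Hochberg adjustment over all 6558 genes and a threshold of 0.05. CPM values are TMM-scaled, and SEs follow from the F statistic. The test was tried on simulated data first. Ratios of 2 genes, with 0.5 added to each count, were compared by an exact permutation test in SciPy 1.17.1. The floor was 3 counts per library (0.0513 to 0.134 CPM) and covers counting error only.

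All 36 genes are named, and from each other list the called genes, at most 4 by smallest p, with CIK1 and CHS1 added after their values were seen. A gene of the lists that this rule would name is not reported here. The genes and lists were chosen with earlier results of these data known, and the P-box pattern after the promoters were read. All 36 models have the same coordinates in RefSeq's R64 annotation, from whose genome the sequences come. 4 of them (STE18, STE7, STE20 and PRM6) overlap another model, and none has a copy of at least 90% identity over 100 bases by blastn 2.17.0.

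Deviations from the group means correlated at 0.606, 0.452, 0.633 and 0.598 between WT and mcd1-1 libraries of the same letter, and at 0.49 to 0.653 between different letters of the same set. Libraries of the same letter were thus no more alike than different letters of the same set. These values show the sets and give no separate sign that the letter pairs the samples, which the labels do not state either. The letter is a block in an alternative fit only, and the main fit has group as its only term. Blocked values or counts stand beside results whose call they change. The interaction of set and group was added after seeing the data. Alternatives were DESeq2 1.42.0, limma-voom in limma 3.58.1, RLE, upper-quartile or library-size scaling, no filter or 10 CPM in 4 libraries, replicate and set blocks, each set alone and each library left out.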

Additional observations from a re-analysis of the deposited data

Results flagged for a closer look

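Of 72 sets of 4 values, one for each gene and group, 1 had a library set apart from the other 3 by Dixon's criterion, which chance alone meets in about 1 of 20 such sets. It was STE7 in mcd1-1, where library B held 67.3 CPM and the other libraries 48.8 to 51.1 CPM.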

How the results depend on the processing

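The count of induced genes that rose (8) ran from 7 to 12 over all alternatives, and 1 fell under each. With the 10 CPM filter FIG1 and PRM6 were not tested, and PRM3 is among the 7 there. Over all 36 genes (11 rose, 3 fell), 18 rose with library size alone (37.5% of all genes), 19 with the set block (33.7%), 18 in replicates A and B only (34.8%) and 22 in C and D only (38.8%). Under the replicate block 7 fell (30.2% of all genes), under the set block 9 (34.2%), in A and B only 9 (32.9%) and in C and D only 10 (37.1%). Of the a-specific genes (1 rose, 0 fell) 3 rose under the replicate block, the set block, and each set alone, while 1 fell in DESeq2, 3 under the replicate block, 4 under the set block, 4 in A and B only and 2 in C and D only. Of the cascade genes (2 rose, 2 fell) 5 rose with upper-quartile scaling (26.5% of all genes) and 6 with library size alone. With the set block 6 cascade genes rose, in A and B only 8 and in C and D only 7. Lower were 1 with library size alone (8.39% of all genes), 4 with the set block, 4 in A and B only and 7 in C and D only. Leaving out each library gave 10 to 13 of the 36 higher and 3 lower, with 1 to 3 cascade genes higher (1 without WT B, WT C or mcd1-1 B). Of all genes 17.7% to 20.9% were then higher and 13.1% to 19% lower. The median of all genes moved from -0.01 to 0.13 with upper-quartile scaling and 0.33 with library size alone. The causes were not tested.

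Signs that reversed belong to genes without a call (log2). STE2 was 0.056 in C and D only. STE20 was 0.061 in limma-voom, 0.14 with upper-quartile scaling, 0.33 with library size alone, 0.041 with the 10 CPM filter, 0.038 with the replicate block, 0.037 with the set block and 0.43 in A and B only (-0.12 to 0.14 leaving out a library). KSS1 was 0.11 and FAR1 0.035 with library size alone, and FAR1 also 0.034 in A and B only. STE12 was -0.20 in C and D only (-0.039 to 0.11 leaving out a library). DIG1 was 0.10 with upper-quartile scaling, 0.29 with library size alone and 0.32 in A and B only (-0.19 to 0.091 leaving out a library). SST2 was 0.079 with upper-quartile scaling, 0.28 with library size alone, 0.000514 with the 10 CPM filter and 0.24 in C and D only (-0.19 to 0.17 leaving out a library). PRM5 was -0.12 in A and B only. The MSG5 to FUS3 ratio was -0.29 in C and D only, and FUS1 to FUS2 ran from -0.049 to 0.64 leaving out a library. KAR5 lost its call in A and B only, GPA1 with library size alone, and DIG2 without each of 4 libraries. Beyond STE6, BAR1, MFA1, MFA2, ASG7, STE18, STE50 and KAR4, the replicate block changed no other call among the 36 genes. In the other lists it added calls and removed none. The set block called the same genes, and also STE2 and KSS1 lower and STE5, STE7, MSG5 and PRM3 higher. Genes of few counts, such as PRM6 and FIG1 in WT, are limited by depth.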
